A study of Mus musculus with 22 samples.

Results

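The 33 genes described here are a list of microglial genes, taken by symbol from the hypothalamic arrays of mice carrying Lewis lung carcinoma. All 33 had exactly 1 probe set in the platform annotation, out of 18820 genes measured. They were grouped by role into 12 homeostatic genes, 12 genes of immune sensing and activation, and 9 genes of complement, lysosome and general leukocyte identity. Lewis lung carcinoma is a transplantable tumour that arose in C57BL mice. In male C57BL/6 mice, 6 weeks old at inoculation, tumour cells were injected into a hind leg muscle, and hypothalami were collected from 5 mice on day 10, 7 on day 14 and 6 on day 17. The 4 control mice, of the same strain and sex, were all killed on day 14, and the labels do not say whether they received an injection without cells. All groups were housed singly, had free access to a standard diet and water and were anaesthetised with ketamine and xylazine before dissection. The same 4 controls served all 3 comparisons, so those of days 10 and 17 also differ in day. Values are deposited log2 array values, 1 array per mouse, and differences are on the log2 scale, tumour minus control unless another order is given.

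Microglia are the resident macrophages of the brain parenchyma. They depend on signals through the receptor that Csf1r encodes, and in the healthy brain they carry a homeostatic gene set that includes the purinergic receptor P2ry12, Tmem119, the fractalkine receptor Cx3cr1, the transcription factor Sall1 and the scavenger receptor Fcrls. In neurodegenerative and inflammatory mouse models, microglia commonly lower several homeostatic genes while Trem2-dependent, phagocytic and antigen-presenting genes rise. The hypothalamus senses circulating inflammatory signals, and its microglia are studied in obesity, fever and cachexia.

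The stretches of 250 bases before the start of 4 members are shown, since PU.1, the ETS family factor that macrophages and microglia rely on, binds elements with a GAGGAA core. The 4 were chosen to show Fcrls, the member whose level changed, beside a homeostatic gene without these letters and a gene of each of the other roles. Capitals mark GAGGAA or, for the other strand, TTCCTC. Sequences are from RefSeq, build GRCm38.p6, each written 5′ to 3′ in the direction of its gene: Fcrls at chr3:87263525-87263774 on the minus strand, P2ry12 at chr3:59262986-59263235 on the minus strand, Trem2 at chr17:48346151-48346400 on the plus strand and C1qb at chr4:136886201-136886450 on the minus strand.
Fcrls: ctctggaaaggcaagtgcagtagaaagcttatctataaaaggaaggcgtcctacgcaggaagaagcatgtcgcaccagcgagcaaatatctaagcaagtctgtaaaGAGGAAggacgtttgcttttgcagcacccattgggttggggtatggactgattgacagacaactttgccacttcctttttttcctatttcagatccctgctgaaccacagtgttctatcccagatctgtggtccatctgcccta
P2ry12: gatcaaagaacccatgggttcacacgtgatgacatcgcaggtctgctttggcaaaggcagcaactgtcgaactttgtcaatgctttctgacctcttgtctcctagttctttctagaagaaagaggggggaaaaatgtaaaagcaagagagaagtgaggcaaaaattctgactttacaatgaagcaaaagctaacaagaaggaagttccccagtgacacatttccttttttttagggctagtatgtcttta
Trem2: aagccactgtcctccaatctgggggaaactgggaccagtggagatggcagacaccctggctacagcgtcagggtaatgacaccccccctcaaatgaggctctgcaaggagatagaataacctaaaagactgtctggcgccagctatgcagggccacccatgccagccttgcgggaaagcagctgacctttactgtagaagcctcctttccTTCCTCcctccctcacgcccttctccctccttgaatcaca
C1qb: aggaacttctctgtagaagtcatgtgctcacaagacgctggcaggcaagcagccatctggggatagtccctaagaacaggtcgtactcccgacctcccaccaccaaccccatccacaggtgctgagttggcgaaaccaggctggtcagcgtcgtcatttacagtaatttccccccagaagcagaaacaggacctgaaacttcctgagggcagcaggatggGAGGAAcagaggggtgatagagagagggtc
Entries were found for 25 of the 33 members. GAGGAA or TTCCTC stood before at least 1 listed start in 14 of these 25 (56.0%), against 6986 of 27025 genes in the table (25.9%). In the homeostatic role it was 3 of 8 (37.5%), namely Fcrls, P2ry13 and Slco2b1. The longer GAGGAAGT, searched on both strands and containing GAGGAA, was found in 1 of 25 members, C1qc (4.0%), against 2.79% of all genes. These matches describe letters in a window and were not tied to any measurement of binding.

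Before the members' results, the arrays themselves were compared. Their medians ran from 5.27 to 5.34, no array repeated another, and 14 of 15 measured hypothalamic marker genes lay above the background measure, which was 3.87 (the 95th percentile over probe sets of odorant and vomeronasal receptors, which brain tissue should largely lack). Some samples also carried a signal of thalamus, the tissue that borders the hypothalamus. The mean of 10 thalamus marker genes was 6.48 in control replicate 1 and 6.89 in control replicate 3, against 5.74 and 5.72 in the other 2 controls. Among tumour mice it was highest in day 14 replicate 2 (6.52) and day 17 replicate 1 (6.24), and values without these 4 arrays are given below where they change a call. Those fits keep only the other 2 controls. By group the mean was 6.21 in controls and 5.74, 5.81 and 5.76 on days 10, 14 and 17. All 10 markers were lower than in controls on each day (medians -0.48, -0.42 and -0.47). The thalamus signal thus differed between control and tumour groups, the same comparison on which calls rest. Of the members, Gpr34, Cd14, Tlr4 and Aif1 (which encodes IBA1, a protein widely used to stain microglia) had a mean over all arrays at or below background, so 29 of 33 were above it.

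Among the 33 genes, 1 changed past the threshold, Fcrls, and it fell. On day 10, limma (adjusted p below 0.05 over all 18820 genes) called 0 of 33 members, where it called 0.106% of all genes, and 4 of 33 had an unadjusted p below 0.05, against 10.7% of all genes. For day 14 it called 1 member lower (0.0213% of genes were called lower, 0.218% in either direction), and on day 17 again 1 member lower (0.685% lower, 1.12% in either direction), both times Fcrls. The other members moved to both sides of control without passing, the highest being Ptprc at 0.36 on day 10. The median difference of the 33 was 0.10 on day 10, 0.025 on day 14 and -0.041 on day 17, against medians over all genes of 0.00060, -0.0046 and -0.011. On day 10 the mean was higher than in controls in 27 members and lower in 6 (50.3% of all genes were higher). By day 14 it was higher in 21 and lower in 12 (48% of all genes were higher), and on day 17 higher in 9 and lower in 24 (53.7% of all genes were lower). Other lists were also higher on day 10, with 10 of 10 border macrophage and 8 of 9 endothelial markers (medians 0.12 and 0.15). So were 7 of 8 oligodendrocyte and 5 of 6 monocyte markers (medians 0.11 and 0.30). Of astrocyte, hypothalamic and thalamus markers, 5 of 10, 5 of 15 and 0 of 10 were higher (medians 0.021, -0.14 and -0.48). Whether the members shared a day 10 shift with other cells was not tested. Since the arrays measured whole tissue, fewer microglia and less RNA of a gene per microglial cell cannot be told apart.

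**Figure D1:**
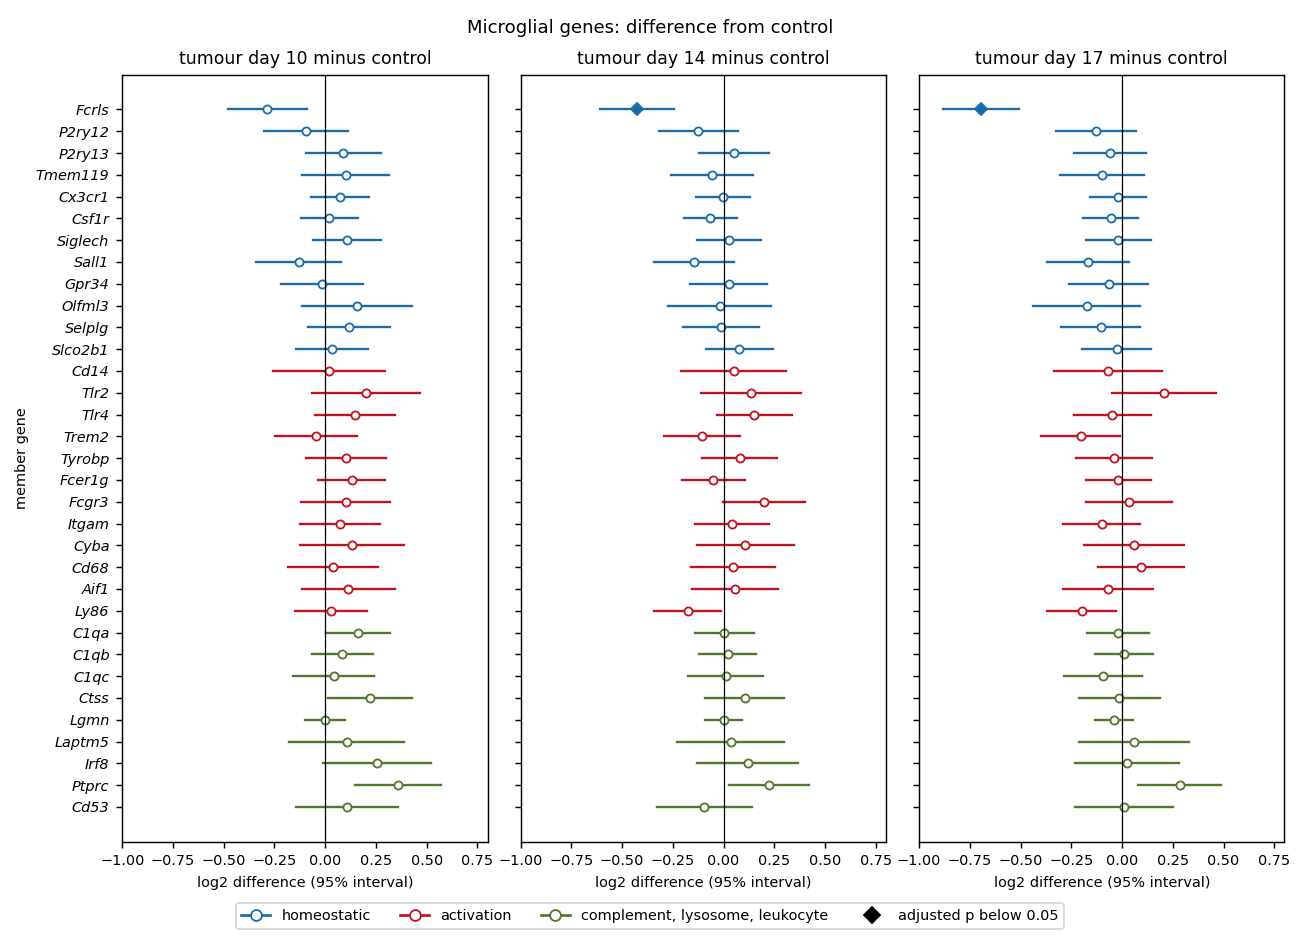
Log2 difference from control (x axis, point, with its 95% interval from limma) for each of the 33 members (y axis, coloured by role) on tumour days 10, 14 and 17. Fcrls is the one filled diamond, on day 14 at -0.43 and on day 17 at -0.70, and the other members are open circles, with Ptprc farthest to the right at 0.36, 0.22 and 0.28.

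Fcrls, the Fc receptor-like scavenger receptor that in the mouse brain marks microglia, was lower with each later day. The 4 controls had log2 values of 6.58, 6.12, 6.39 and 6.17. The 5 mice of tumour day 10 had 6.13, 5.89, 5.96, 5.99 and 6.19. On day 14 the lowest, median and highest of 7 mice were 5.79, 5.86 and 6.14, and on day 17 those of 6 mice were 5.49, 5.59 and 5.87. Every mouse of day 17 lay below every control, which 1 of 33 members and 3.3% of all genes showed, whereas on days 10 and 14 the groups overlapped, with 3 of 5 and 6 of 7 tumour mice below the lowest control. The group means were 6.32 ± 0.21 in controls (SD, n = 4), 6.03 ± 0.13 on day 10 (n = 5), 5.89 ± 0.12 on day 14 (n = 7) and 5.62 ± 0.14 on day 17 (n = 6). On day 10 Fcrls differed from control by -0.29 ± 0.094 (SE, limma adjusted p = 0.293), which did not pass. On day 14, the day with matched controls, Fcrls fell by 0.43 ± 0.088 (SE, limma adjusted p = 0.0381, 95% interval -0.61 to -0.24). On the linear scale its level fell by 25.6%. On day 17 it fell by 0.70 ± 0.090 (SE, limma adjusted p = 0.00104, 95% interval -0.88 to -0.51), and its linear level fell by 38.2%. The F test over all groups also called Fcrls (limma adjusted p = 0.00447), where it called 0.335% of all genes.

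How far the fall of Fcrls held was read from fits that changed 1 choice. The day 17 call held in all 22 fits that left out 1 array (differences of -0.76 to -0.61, limma adjusted p of 0.000452 to 0.0119) and with the mean of the thalamus markers added as a term (-0.64, limma adjusted p = 0.0108). It was lost without the 4 arrays highest in thalamus markers (-0.51, limma adjusted p = 0.195), in a fit that kept 2 controls, replicates 2 and 4. The 2 controls with the highest Fcrls values, replicates 1 and 3, were also the 2 controls with the highest thalamus marker mean. The 2 tumour arrays with the highest thalamus markers were not the highest of their groups in Fcrls: day 14 replicate 2 stood at 5.85 and day 17 replicate 1 at 5.54. The tumour array next in thalamus markers, day 10 replicate 5 (6.06), did have the highest Fcrls value of its group. It was not among the 4 arrays left out. The day 14 call was lost in 10 of the 22 leave-one-out fits, those without control replicate 1, 2 or 3, day 14 replicate 1, 2, 3, 4, 5 or 7, or day 17 replicate 5 (differences of -0.49 to -0.34, limma adjusted p of 0.0100 to 0.261). It was also lost with that term (-0.38, limma adjusted p = 0.194) and without the 4 arrays (-0.25, limma adjusted p = 0.980). With a term for the run of accessions (the first 9 or the last 13 samples) the differences on days 14 and 17 were -0.43 and -0.70 (limma adjusted p = 0.0394 and 0.00111). Within the last 13 accessions the Fcrls difference on day 17 was -0.63 (limma adjusted p = 0.120). Within the first 9 it was -0.94, but that run holds 1 control, so its test rests on the assumption that a lone control varies like the other groups.

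**Figure D2:**
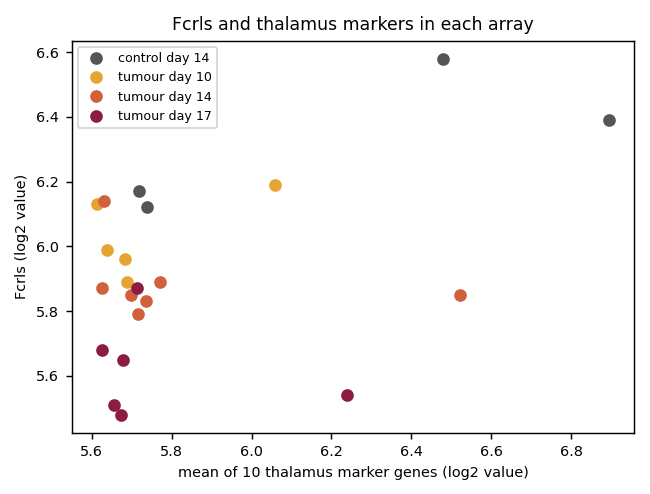
Fcrls (y axis, log2 value) against the mean of 10 thalamus marker genes (x axis, log2 value) in each of the 22 arrays, coloured by group. Controls at a marker mean of 6.48 and 6.89 have the highest Fcrls values, while the tumour arrays at 6.52 and 6.24 lie at 5.85 and 5.54. The day 10 array at 6.06 has the highest Fcrls value of its group.

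The other 11 homeostatic genes differed less from control than Fcrls, and 0 were called on any day. On day 17 all 11 had a lower mean than controls, by -0.17 (Olfml3) to -0.018 (Siglech), with a median of -0.065 where 53.7% of all genes were lower. Their 95% intervals reached down to -0.44 and up to 0.14, so the lowest bound among them lay above the -0.51 that was the upper bound for Fcrls. The difference between genes was not tested. On day 10 the differences ran from -0.13 (Sall1) to 0.16 (Olfml3) and on day 14 from -0.15 (Sall1) to 0.077 (Slco2b1), an organic anion transporter. The mean level over these 11 genes was 6.35 ± 0.028 in controls, 6.39 ± 0.067 on day 10, 6.33 ± 0.078 on day 14 and 6.27 ± 0.069 on day 17 (SD, n = 4, 5, 7 and 6).

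Set against the 10 of these genes that lie above background, array by array, Fcrls stood at -0.32 ± 0.22 in controls (log2 difference within the array, SD, n = 4). It stood at -0.65 ± 0.12 on day 10, -0.72 ± 0.13 on day 14 and -0.93 ± 0.11 on day 17. Controls ran from -0.56 to -0.052 and day 17 mice from -1.08 to -0.75, so these groups did not overlap on that measure. The Fcrls values alone already did not overlap between them, so this is not separate support. The zero of this scale has no meaning, since probe sets differ in brightness, and the shift between groups is a description of unequal change.

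**Figure D3:**
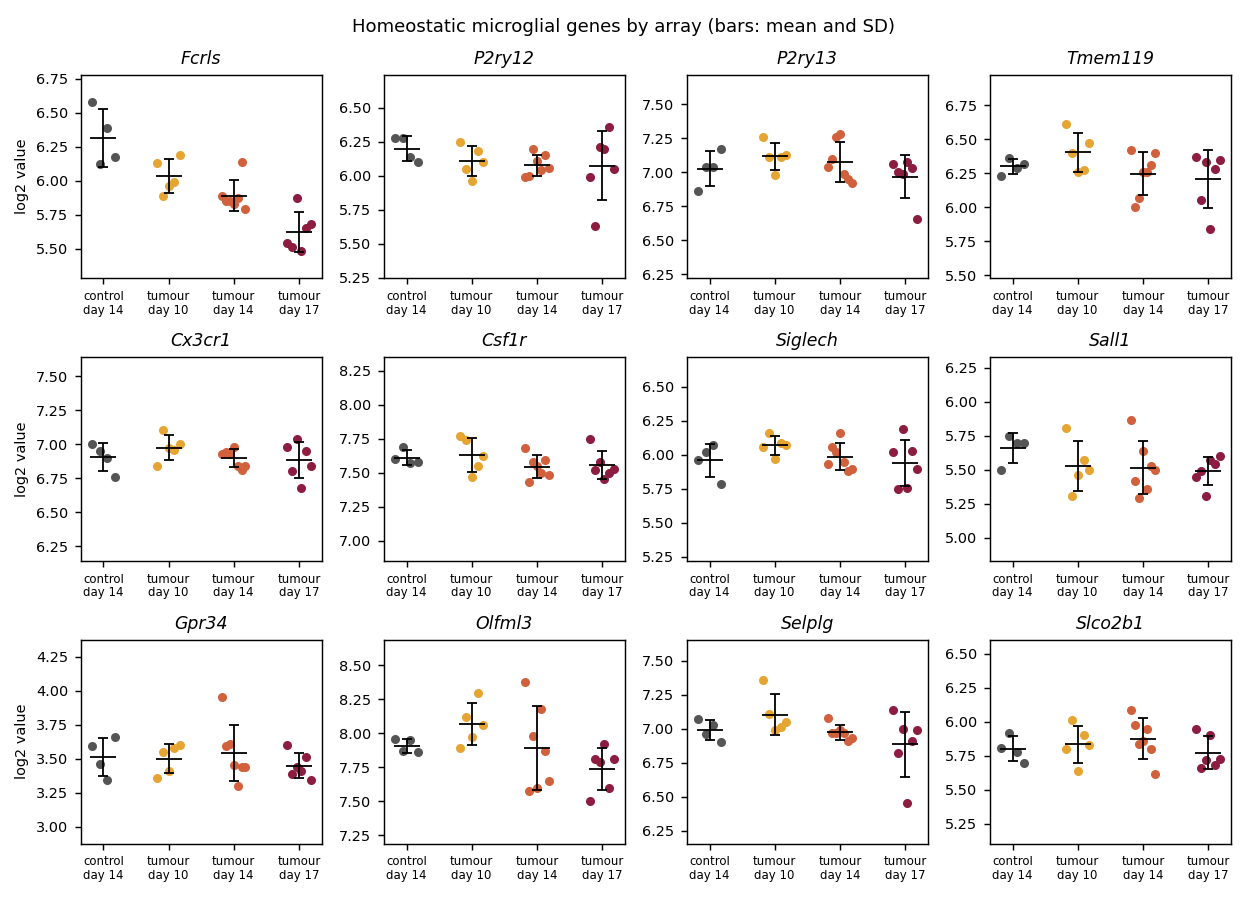
Log2 value (y axis) of each of the 12 homeostatic members in every array, by group (x axis), with bars for the mean and SD. Fcrls descends from a control mean of 6.32 to 5.62 on day 17, and the remaining panels overlap between groups.

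The purinergic receptors, which sense nucleotides released by damaged or active cells, differed little. P2ry12 differed from control by -0.093 ± 0.10, -0.12 ± 0.093 and -0.13 ± 0.096 on days 10, 14 and 17 (SE, limma adjusted p = 0.768, 0.670 and 0.524). P2ry13 differed by 0.090, 0.050 and -0.058 on the same days. Tmem119, a membrane protein used to tell microglia from other macrophages, differed by 0.10, -0.056 and -0.098. None of these differences passed the test.

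Cx3cr1, which receives the neuronal ligand fractalkine, differed from control by 0.072, -0.0039 and -0.020 on days 10, 14 and 17, each with an SE of at most 0.069. Csf1r, the survival receptor, differed by 0.020, -0.066 and -0.056. Siglech, a sialic acid-binding lectin, differed by 0.11, 0.027 and -0.018. The microglial transcription factor Sall1 had a lower mean on every day, by -0.13, -0.15 and -0.17 (SE 0.095 to 0.10, limma adjusted p = 0.666, 0.617 and 0.395). Gpr34, a lysophosphatidylserine receptor, was near background, and Selplg, which encodes the selectin ligand PSGL-1, differed by 0.12, -0.013 and -0.11.

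Olfml3, a secreted olfactomedin-like protein, had the second smallest F test p of the homeostatic genes after Fcrls. Controls had 7.96, 7.87, 7.95 and 7.86, and mice of day 10 had 7.89, 8.12, 7.97, 8.30 and 8.06. On day 14 the lowest, median and highest were 7.58, 7.87 and 8.38, and on day 17 they were 7.50, 7.80 and 7.92. Tumour mice overlapped controls on each day, and day 14 mice were the most spread (SD 0.31, against 0.053 in controls). The differences of Olfml3 from control were 0.16 ± 0.13, -0.019 ± 0.12 and -0.17 ± 0.13 (SE, limma adjusted p = 0.694, 0.973 and 0.509).

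Of the 12 genes of sensing and activation, 0 were called on any day. Their median difference was 0.10 on day 10 (11 higher, 1 lower), 0.053 on day 14 (9 and 3) and -0.044 on day 17 (4 and 8). The receptors of bacterial products were Tlr2, which differed by 0.20 ± 0.13, 0.13 ± 0.12 and 0.21 ± 0.12 (SE, limma adjusted p = 0.592, 0.727 and 0.404), and Tlr4 and Cd14, the endotoxin receptor and its co-receptor, which sat at background. Tlr4 values were 3.77, 3.62, 3.69 and 4.00 in controls and 3.88, 3.94, 3.81, 3.91 and 4.06 on day 10. On days 14 and 17 Tlr4 ran from 3.77 to 4.20 (median 3.89) and from 3.46 to 3.93 (median 3.71). The groups overlapped, with differences of 0.15, 0.15 and -0.047, and 11 of 22 arrays lay above the background measure.

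Trem2, a lipid-sensing receptor, and Tyrobp, the adaptor through which it signals, did not move together past the threshold. Trem2 differed by -0.047 ± 0.097, -0.11 ± 0.091 and -0.20 ± 0.094 (SE, limma adjusted p = 0.890, 0.717 and 0.279). Tyrobp differed by 0.10, 0.079 and -0.041. The Fc receptor chain Fcer1g differed by 0.13, -0.050 and -0.018 and the Fc receptor Fcgr3 by 0.10, 0.20 and 0.034, with a smallest limma adjusted p of 0.493 for Fcgr3 on day 14.

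Itgam, the integrin CD11b, differed by 0.073, 0.042 and -0.10, and Cyba, a subunit of the phagocyte NADPH oxidase, by 0.13, 0.11 and 0.060. Cd68, a lysosomal glycoprotein of phagocytes, differed by 0.037, 0.045 and 0.094. Aif1 differed by 0.11, 0.056 and -0.070 near background. None of these passed the test.

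Ly86, which encodes MD-1, the partner of the Toll-like protein RP105, had the smallest F test p of the activation genes. Controls had 7.77, 7.92, 8.06 and 7.86, and day 10 mice had 8.02, 8.01, 7.86, 7.94 and 7.85. Day 14 mice had a lowest, median and highest of 7.56, 7.74 and 7.86, and on day 17 they were 7.35, 7.78 and 7.84. The groups overlapped on each day, although the medians of days 14 and 17 lay below those of controls (7.89) and day 10 (7.94). Ly86 differed from control by 0.030 ± 0.085, -0.18 ± 0.080 and -0.20 ± 0.082 (SE, limma adjusted p = 0.929, 0.441 and 0.232).

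In the group of complement, lysosome and leukocyte genes, 0 of 9 were called on any day. Their median difference was 0.11 on day 10 (8 higher, 1 lower), 0.021 on day 14 (8 and 1) and 0.0081 on day 17 (5 and 4). The medians of days 14 and 17 had no settled sign, running from -0.011 to 0.052 and from -0.024 to 0.024 with each array left out. Ptprc, which encodes the pan-leukocyte phosphatase CD45, had the highest difference of the 33 members on each day. Controls had Ptprc values of 4.73, 4.99, 5.05 and 4.78, and day 10 mice had 5.15, 5.37, 5.04, 5.39 and 5.29. Day 14 mice had a lowest, median and highest of 4.87, 5.12 and 5.27, and on day 17 they were 5.02, 5.07 and 5.50. Tumour mice lay mostly at or above the upper controls, but the groups overlapped on each day. Ptprc differed by 0.36 ± 0.10, 0.22 ± 0.095 and 0.28 ± 0.098 (SE, limma adjusted p = 0.207, 0.409 and 0.150).

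C1qa, C1qb and C1qc encode the chains of C1q, the first component of the classical complement pathway, which in brain comes largely from microglia. C1qa values were 6.68, 6.63, 6.68 and 6.63 in controls and 6.80, 6.98, 6.67, 6.74 and 6.89 on day 10. On days 14 and 17 C1qa ran from 6.46 to 6.80 (median 6.67) and from 6.41 to 6.75 (median 6.66), on both sides of the controls. The differences of C1qa were 0.16 ± 0.076, 0.0038 ± 0.071 and -0.020 ± 0.073 (SE, limma adjusted p = 0.457, 0.993 and 0.922). C1qb differed by 0.085, 0.021 and 0.0095, and C1qc by 0.042, 0.0093 and -0.094.

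Ctss, the lysosomal protease cathepsin S, and Irf8, a transcription factor of the macrophage lineage, were the 2 members in which every day 10 mouse lay above every control (2.21% of all genes did). Ctss had 7.04, 7.13, 6.93 and 7.13 in controls and 7.62, 7.27, 7.14, 7.24 and 7.13 on day 10, so the gap was under the second decimal. Irf8 had 5.11, 5.00, 5.11 and 4.66 in controls and 5.34, 5.23, 5.18, 5.26 and 5.11 on day 10, with a gap as narrow. Their differences on day 10 did not pass (Ctss 0.22 ± 0.10 and Irf8 0.25 ± 0.13, SE, limma adjusted p = 0.438 and 0.490). On day 17 Ctss differed by -0.013 and Irf8 by 0.024. The lysosomal protease Lgmn differed by -0.00017, 0.00023 and -0.040, and the leukocyte membrane proteins Laptm5 and Cd53 differed on day 10 by 0.11 each.

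**Figure D4:**
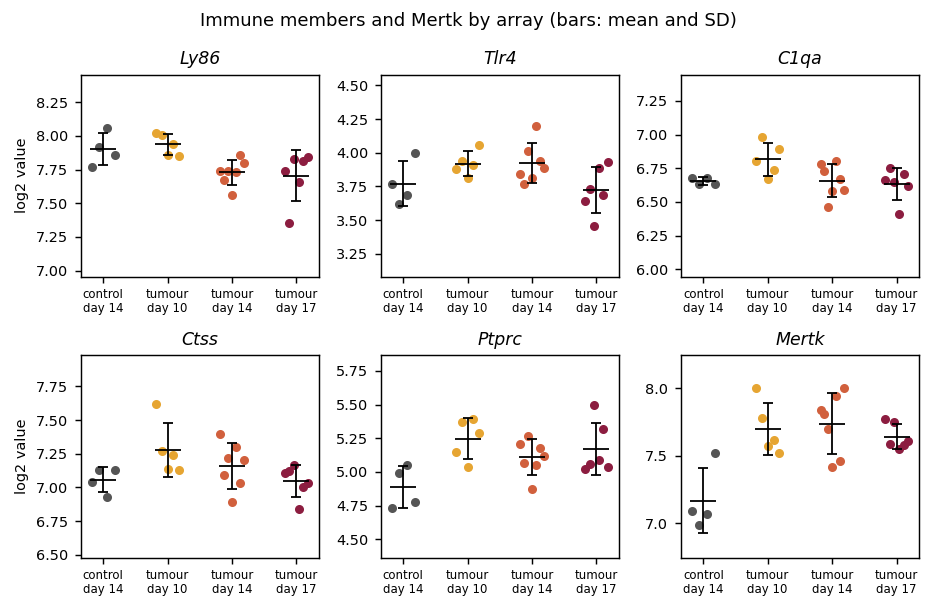
Log2 value (y axis) of Ly86, Tlr4, C1qa, Ctss, Ptprc and Mertk in every array, by group (x axis), with bars for the mean and SD. Mertk lies above a control mean of 7.17 in every tumour mouse, while the 5 members overlap between controls and day 17.

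Among tumour mice alone, which removes the controls from the comparison, 31 of 33 members had a lower mean on day 17 than on day 10 and 2 had a higher one (Cd68 at 0.057 and Tlr2 at 0.0057). Over all genes, 56.5% were lower. Lower means were also found in 8 of 8 oligodendrocyte, 10 of 10 meningeal fibroblast and 8 of 10 border macrophage markers (medians -0.20, -0.27 and -0.12). Of endothelial markers 1 of 9 was lower, and of hypothalamic markers 3 of 15 (medians 0.11 and 0.14). Whether the members shared a shift with these other cells was not tested. The median difference of the members was -0.13, against -0.014 over all genes, and it was -0.11 for homeostatic, -0.15 for activation and -0.10 for complement, lysosome and leukocyte genes. Limma called 0 members in this comparison, as it called 0% of all genes, while 8 of 33 had an unadjusted p below 0.05 and a lower mean, against 5.22% of genes. Fcrls differed by -0.41 ± 0.085 (SE, unadjusted p = 7.75e-05, limma adjusted p = 0.179), Olfml3 by -0.33 ± 0.12 (limma adjusted p = 0.481), Ctss by -0.24 ± 0.090, Ly86 by -0.23 ± 0.077 and C1qa by -0.18 ± 0.068. The Fcrls difference between days was -0.37 within the first 9 accessions, -0.44 within the last 13 and -0.39 without the 4 arrays high in thalamus markers. With a straight line over days 10, 14 and 17, 32 of 33 members had a downward slope (56.5% of genes did), and limma called 0 members and 0% of genes. Its Fcrls slope was -0.057 ± 0.012 per day (SE, limma adjusted p = 0.182). From day 10 to day 14 limma called 0 members, where it called 0.00531% of genes. From day 14 to day 17 it called 0 members and 0% of genes, with 2 members and 4.17% of genes at an unadjusted p below 0.05. Fcrls differed by -0.14 ± 0.080 in the first step and by -0.27 ± 0.078 in the second.

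Other genes of microglial biology were read from lists beside the members. Of 17 measured further microglial genes, 1 rose on day 14 and on day 17, Mertk, a receptor tyrosine kinase that microglia and astrocytes use to engulf dying cells and synapses, and 0 fell. Mertk was 7.09, 6.99, 7.07 and 7.52 in controls and 8.00, 7.78, 7.57, 7.62 and 7.52 on day 10. Day 14 mice had a lowest, median and highest of 7.42, 7.81 and 8.00, and on day 17 they were 7.55, 7.60 and 7.77. Control replicate 4 stood higher than the other 3 controls, and every day 17 mouse lay above all 4 (1.66% of genes did so). Mertk differed by 0.53 ± 0.12, 0.57 ± 0.11 and 0.48 ± 0.12 on days 10, 14 and 17 (SE, limma adjusted p = 0.110, 0.0281 and 0.0465). Its call was lost in 7 of 22 leave-one-out fits on day 14 and in 14 of 22 on day 17 (limma adjusted p of up to 0.168 and 0.160). The fits that lost the day 14 call were those without control replicate 1, 2 or 3 or day 14 replicate 1, 2, 5 or 7. For day 17 they were those without control replicate 1, 2 or 3, day 10 replicate 2, 3, 4 or 5, day 14 replicate 2 or 3, or day 17 replicate 1, 2, 3, 4 or 5. Without the 4 arrays high in thalamus markers the Mertk differences were 0.47 and 0.36 (limma adjusted p = 0.980 and 0.531). Both calls were also lost with the thalamus term (limma adjusted p = 0.120 and 0.110), when arrays of the other groups were dropped (0.187 and 0.0609) and within each run of accessions. The day 17 call was lost too with the run term and over single probe sets (0.0533 and 0.0511), so that 12 of 38 alternative fits lost the call on day 14 and 21 of 38 on day 17.

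Of 18 measured genes that microglia raise in mouse models of neurodegeneration, 0 were called on any day, with medians of 0.099, 0.062 and 0.018. Of these 18, 4 lay at or below background (Cst7, Itgax, Clec7a and Gpnmb), and Spp1 of the same list was not measured. The count of 0 therefore says little about these genes. The smallest F test p there was that of Lilrb4a, an inhibitory receptor, which differed by 0.40 ± 0.13, 0.0030 ± 0.12 and 0.21 ± 0.12 (SE, limma adjusted p = 0.266, 0.997 and 0.406). Of 15 measured niche signals, which include the ligands of the Csf1r receptor and the transforming growth factor beta pathway, 0 were called. Csf1, a Csf1r ligand, differed by 0.064, 0.17 and 0.15 (limma adjusted p = 0.774, 0.345 and 0.264). Of 15 measured genes of Toll-like receptor signalling, 0 were called, and 6 lay at or below background (Tlr1, Tlr6, Tnf, Il1b, Il6 and Nos2). Changes in these 6 could therefore be missed. Tlr1, which pairs with TLR2, differed by 0.12 ± 0.10, 0.24 ± 0.094 and 0.35 ± 0.097 (SE, limma adjusted p = 0.706, 0.367 and 0.0788). Its mean over all arrays was 3.17, below the background measure of 3.87.

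Genes of other cells that share markers with microglia were also read. All 10 border macrophage markers were measured, 5 at or below background, with 0 called, and the range of their mean level was 3.68 to 3.91 in controls and 3.57 to 4.12 in tumour mice. All 10 were higher in mean on day 10, and 5 of 10 on day 14 and on day 17 (medians 0.12, 0.0065 and -0.022). Of 6 measured monocyte markers 0 were called, and the defining ones, Ccr2, Plac8 and Chil3, lay at or below background. The mean of these 6 ran from 4.64 to 4.84 in controls, from 4.89 to 5.17 on day 10, from 4.77 to 5.39 on day 14 and from 4.89 to 5.23 on day 17. The monocyte markers above background were Fn1, Vcan and Itga4, which other brain and vessel cells also express. Some red cell and vessel markers did change. Of 5 measured red cell genes, Alas2, the heme synthesis enzyme, rose by 2.03 ± 0.33 and 2.42 ± 0.34 on days 14 and 17 (SE, limma adjusted p = 0.00738 and 0.00128), and Slc4a1, the red cell anion exchanger, rose by 1.69 ± 0.34 and 2.10 ± 0.35 (SE, limma adjusted p = 0.0288 and 0.00372). The median difference over all 5 was only 0.053 and 0.046 on these days, with 0 and 2 of them lower in mean. The mean of these 5 genes ran from 4.07 to 4.67 in controls, 4.54 to 5.09 on day 10, 4.76 to 5.37 on day 14 and 4.92 to 5.76 on day 17, so it was higher on the days on which Fcrls was lower. Of 9 measured endothelial genes, 1 was called, Slc2a1, the glucose transporter of the blood-brain barrier, which rose by 0.52 ± 0.098 and 0.49 ± 0.10 (SE, limma adjusted p = 0.0182 and 0.0220). On days 14 and 17, 7 and 8 of the 9 were higher in mean and 2 and 1 lower (medians 0.20 and 0.21). The part of red cells or vessels in the fall of Fcrls or the rise of Mertk was not tested. Of 8 neutrophil and 8 lymphocyte markers, 7 and 7 lay at or below background and 0 were called. The mean of 10 meningeal fibroblast markers ran from 5.46 to 6.06 in controls and from 5.42 to 6.79 on day 10, with all 10 higher in mean and 0 called. In the F test over groups, the smallest p of each list belonged to Cd209f for border macrophages, Vcan for monocytes, Retnlg for neutrophils, Nkg7 for lymphocytes and Lum for meningeal fibroblasts (limma adjusted p = 0.445, 0.149, 0.230, 0.444 and 0.659). For astrocytes, oligodendrocytes and thalamus it belonged to Aqp4, Cnp and Rgs16 (limma adjusted p = 0.102, 0.349 and 0.311). The part of any of these cells in the higher day 10 means of Ptprc, Ctss and Irf8 was not tested.

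The members varied together only weakly within groups. After group means were subtracted, the 29 members above background formed 406 pairs with a median Pearson r of 0.14 over 22 arrays, from -0.60 to 0.85, against a median of 0.021 over all pairs of genes above background. The closest pairs were Csf1r with Trem2 (0.85) and Cx3cr1 with Siglech (0.82). Fcrls had a median r of 0.079 with the other members, and its closest member was Trem2 (0.38). Its r with the thalamus marker mean was 0.29, while those of Siglech and Cx3cr1 were 0.35 and 0.35. Genes outside the list were ranked by their r with the homeostatic mean, leaving out those at or below background. Predicted and clone-named genes, small RNAs and odorant or vomeronasal receptors were left out too. The 10 highest of the rest were Sco1 (0.81), Klk6, Plin5, Gsc, Pole, Lair1, Dmap1, Cd82, Gas8 and Ndufaf2 (0.77). The arrays share their scaling and the dissection, and these coefficients are descriptions.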

How the data were processed

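The authors deposited log2 values made with RMA (named in the submitters' processing notes), so background correction and scaling between arrays preceded everything here. Neither its version nor a genome build is given in the sources used here. Of 35556 probe sets, 21218 had 1 gene in the platform annotation, 1881 had several and 12457 were unnamed, and the probe set with the highest mean stood for each of 18820 genes. No filter on low values was used. Limma 3.58.1 (R 4.3.3) fitted a linear model with a mean for each of 4 groups over 22 arrays (18 residual degrees of freedom, two-sided tests, Benjamini-Hochberg over all genes, threshold 0.05). The number of arrays limits the precision, and the labels describe separate mice. In data simulated for tumour day 17 against control, the fit recovered 83% of genes changed by 0.5 and 100% of those changed by 1 (log2, 18820 genes), and 4.19% of calls were false. The simulated noise was normal and independent between genes, with each gene's own spread. It held no shared signal of dissection or run, so these rates need not carry over to the real arrays. The members, their roles, the other lists and the rule for named genes were chosen with earlier results of these data known. Full values are given for members with a call and for the 2 members of each role with the smallest F test p, and Ctss and Irf8 were added because their day 10 values did not overlap controls. From the other lists, genes with a call are named, and otherwise the 1 gene with the smallest F test p. Of the hypothalamic markers, Ghrh rose on days 14 and 17 and Npy on day 17, and 0 of the astrocyte, oligodendrocyte and thalamus markers were called. All 10 thalamus markers nonetheless had a lower mean than controls on each day. Alternatives changed variance moderation, weights, scaling, probe set choice, arrays and covariates.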

Additional observations from a re-analysis of the deposited data

Results flagged for a closer look

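Of 136 combinations of gene and group tested, over the 33 members and Mertk, 9 held a mouse that stood apart from its group by Dixon's criterion, and chance gives about 1 in 20. For Fcrls, tumour day 14 replicate 6 had a log2 value of 6.14 against 5.89 in the next mouse, and this mouse alone makes day 14 overlap the controls. Standing low were P2ry13 in day 17 replicate 6 (6.66, next 6.99), Cd14 in day 10 replicate 3 (3.48, next 3.90), Cd14 in day 17 replicate 4 (3.25, next 3.74) and Ly86 in day 17 replicate 2 (7.35, next 7.66). Both Cd14 values lie below the background measure. Standing high were Itgam in day 17 replicate 5 (5.99, next 5.76), Ctss in day 10 replicate 1 (7.62, next 7.27), Cd53 in day 10 replicate 1 (6.70, next 6.36) and Irf8 in day 14 replicate 1 (5.59, next 5.14). The Ctss and Cd53 values come from the same mouse.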

How the results depend on the processing

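Of 303 recounts of called members under other settings, 279 gave the same count, 22 a lower and 2 a higher one. On day 14 the count of 1 became 0 with array weights (Fcrls -0.36, limma adjusted p = 0.0528), when arrays of the other groups were dropped (limma adjusted p = 0.148), within the first 9 accessions (-0.71, 0.451), within the last 13 (-0.32, 0.479), with the thalamus covariate and without the 4 arrays highest in thalamus markers, and ranged from 0 to 1 with each array left out. On day 17 and in the F test it became 0 within each run of accessions and without the 4 arrays, and was 1 in every leave-one-out fit. The run of accessions may be a batch, although no label says so, and a fit to a run alone has fewer arrays. The first run holds 1 control, so its lost calls say nothing about stability. With the run as a term the counts were unchanged. With the replicate number as a block, Fcrls was called from day 10 to day 17 (-0.44, limma adjusted p = 0.0295) and in the line over days, so both counts rose from 0 to 1. Whether the numbers pair the mice was not settled by a check of correlations between arrays. The 28 same-numbered pairs from different groups had a median correlation of 0.066 (lowest -0.19, 13 over 0.1). In 151 pairs with different numbers it was -0.022 (34 over 0.1). Pairs from the same run had a median of 0.065 (40 of 92 over 0.1) and pairs from different runs -0.088 (7 of 87). Low replicate numbers lie mostly in the first run, so number and run cannot be told apart here.

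Of 444 recomputed role medians, 8 moved by more than the spread between mice. The activation median on day 10 was 0.19 in the first run, 0.0053 in the last and 0.036 without the 4 arrays. On day 14 it was 0.15 and -0.019 in the runs, and from day 10 to day 17 it was -0.22 in the first. The complement, lysosome and leukocyte median on day 10 was 0.21 in the first run, and from day 10 to day 17 it ranged from -0.17 to -0.074 with each array left out. Its day 17 median also changed sign without moving that far, to -0.0073 with array weights, -0.00051 with the replicate block, -0.021 with the run term, -0.012 in the last run and -0.044 without the 4 arrays, and its day 14 median to -0.00035 with the run term. The homeostatic median became -0.00095 on day 10 in the last run and 0.0017 and 0.0021 on day 14 (second quantile normalization and replicate block), and the activation median became 0.0045 on day 17 in the first run.

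Of 1060 recomputed differences of named genes, 977 kept direction and side of the threshold, 52 lost a call, 2 gained one and 29 changed sign, all of the last in uncalled differences near 0. Olfml3 on day 14 became 0.0075 (second quantile normalization), 0.011 (replicate block), 0.018 (first run) and 0.078 (without the 4 arrays), and Ly86 on day 10 became -0.017 (array weights) and -0.068 (last run). Tlr4 on day 17 was 0.065 in the last run, and Mertk from day 10 to day 17 was 0.012 there. C1qa on day 14 became -0.0055 (replicate block), -0.0081 (run term) and -0.028 (first run). C1qa on day 17 became 0.013 (median centring), 0.013 (second quantile normalization), 0.0037 (first run), 0.014 (thalamus covariate) and 0.0040 (without the 4 arrays). With each array left out, signs also changed within ranges of -0.10 to 0.033 for Olfml3 on day 14, -0.013 to 0.083 for Ly86 on day 10 and -0.098 to 0.030 for Tlr4 on day 17, and of -0.020 to 0.036 and -0.044 to 0.024 for C1qa on days 14 and 17, and -0.099 to 0.022 for Mertk from day 10 to day 17. The cause of these changes was not tested. Signals near background limit what Gpr34, Cd14, Tlr4 and Aif1 can show.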
